A study of Mus musculus with 14 samples.

Results

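The 10 core circadian clock genes Arntl, Clock, Npas2, Per2, Per3, Cry1, Cry2, Nr1d1, Dbp and Ciart were followed across 14 hippocampal RNA-Seq libraries of mice with and without the estrogen receptor GPR30. The genes were chosen by symbol, and the 10 rows found were among 55450 genes in the table. All 10 passed the filter on low values (3 or more libraries with 0.5 FPKM or above), as did 18059 genes in all. Each library came from 1 female C57BL/6J mouse of 10 weeks of age. The groups were 3 Δ3102 mice, in which GPR30 was deleted in all cells by CRISPR/Cas9, 4 AG-KO mice (GPR30 fl/fl;GFAP-Cre, deletion in astrocytes), 4 NG-KO mice (GPR30 fl/fl;NSE-Cre, deletion in neurons) and 3 WT mice without a mutation. Cre-only and floxed-only mice were not analysed here, so an effect of Cre or of the floxed allele cannot be told apart from the loss of GPR30. The mice lived on a light/dark cycle, and the hour at which tissue was collected is not given in the sources used here. Hour and genotype therefore cannot be told apart in any comparison of these genes between groups.

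The clock is a loop of transcription and translation. ARNTL (also called BMAL1) pairs with CLOCK or its relative NPAS2 and binds E-boxes in the promoters of the Per and Cry genes, Nr1d1, Dbp and Ciart. The PER and CRY proteins, together with the CIART repressor, shut that activator down, and NR1D1 (REV-ERBα) represses Arntl, Cry1 and Npas2 through ROR elements. In mouse tissues Dbp and Nr1d1 transcripts swing widely over the day, with Arntl and Npas2 in the opposite phase, whereas Cry2 and Clock transcripts swing little. The hippocampus carries such a rhythm of its own, and Per1 and Per2 are also induced acutely by neuronal activity and by stress hormones.

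Members differed in the elements in their promoters. RefSeq windows (250 bases before to 50 after the start, GRCm38.p6) were available for 9 of the 10 genes, 12 windows in all, and Per2 is named only. The windows were searched on both strands for the E-box CACGTG, for the D-box TTATGTAA (reverse TTACATAA, and also TTACGTAA), which DBP and its relatives bind, and for the core AGGTCA (reverse TGACCT) of ROR elements. The E-box occurs in 7.15% of all 32851 windows, the D-box in 1.06% and the ROR core in 16.3%. The windows shown are those of the 4 genes with the smallest p among the 4 genotypes (Ciart, Dbp, Nr1d1 and Cry2), followed by a D-box and a ROR core window, with matches in capitals.
Ciart: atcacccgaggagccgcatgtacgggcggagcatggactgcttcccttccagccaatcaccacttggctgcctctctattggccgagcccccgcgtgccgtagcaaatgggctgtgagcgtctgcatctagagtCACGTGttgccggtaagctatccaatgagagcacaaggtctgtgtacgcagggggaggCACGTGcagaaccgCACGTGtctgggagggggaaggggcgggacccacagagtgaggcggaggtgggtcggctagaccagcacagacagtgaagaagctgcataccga
Dbp: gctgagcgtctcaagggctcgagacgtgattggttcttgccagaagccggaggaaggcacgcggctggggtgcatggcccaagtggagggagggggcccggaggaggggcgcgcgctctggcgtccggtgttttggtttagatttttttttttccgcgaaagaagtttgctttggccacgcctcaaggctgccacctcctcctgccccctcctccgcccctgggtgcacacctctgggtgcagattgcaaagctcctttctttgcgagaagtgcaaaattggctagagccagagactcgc
Nr1d1: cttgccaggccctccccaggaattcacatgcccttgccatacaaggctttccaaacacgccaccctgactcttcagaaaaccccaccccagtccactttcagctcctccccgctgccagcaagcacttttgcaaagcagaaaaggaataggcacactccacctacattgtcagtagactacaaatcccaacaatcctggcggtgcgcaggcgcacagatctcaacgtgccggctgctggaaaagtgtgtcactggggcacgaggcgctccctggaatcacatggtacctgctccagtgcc
Cry2: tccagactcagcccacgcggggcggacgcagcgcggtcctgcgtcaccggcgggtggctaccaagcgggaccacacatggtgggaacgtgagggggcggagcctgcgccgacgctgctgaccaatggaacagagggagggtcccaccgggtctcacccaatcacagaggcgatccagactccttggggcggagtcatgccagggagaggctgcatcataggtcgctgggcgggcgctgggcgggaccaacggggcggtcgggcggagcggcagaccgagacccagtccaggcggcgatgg
Per3: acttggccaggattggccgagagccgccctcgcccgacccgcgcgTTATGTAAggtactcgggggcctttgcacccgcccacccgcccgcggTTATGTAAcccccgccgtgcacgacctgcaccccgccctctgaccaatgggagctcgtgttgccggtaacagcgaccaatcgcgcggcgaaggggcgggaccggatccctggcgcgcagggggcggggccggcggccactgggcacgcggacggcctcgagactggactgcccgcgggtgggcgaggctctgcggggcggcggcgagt
Arntl: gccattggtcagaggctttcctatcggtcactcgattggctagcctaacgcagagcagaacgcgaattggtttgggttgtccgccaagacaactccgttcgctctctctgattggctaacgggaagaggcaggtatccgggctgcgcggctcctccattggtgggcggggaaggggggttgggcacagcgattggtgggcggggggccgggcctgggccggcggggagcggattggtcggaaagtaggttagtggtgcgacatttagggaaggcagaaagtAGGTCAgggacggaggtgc
The Ciart window (chr3:95882179-95882478, minus strand) holds E-boxes that begin at positions -116, -58 and -44 from the start. The Per3 window (chr4:151044616-151044915, minus strand) holds D-boxes at -205 and -158. The Arntl window of its second start (chr7:113207261-113207560, plus strand) holds a ROR core at 32. No match was found in the windows of Dbp (chr7:45704997-45705296, plus strand), Nr1d1 (chr11:98775328-98775627, minus strand) and Cry2 (chr2:92434020-92434319, minus strand), nor in that of Npas2. Of the windows not printed, that of Cry1 has an E-box at -60 and 1 of the Clock windows has the core at -119.

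Dbp, Nr1d1 and Cry2 were the most abundant members. In WT hippocampus the mean FPKM (a level scaled to transcript length and library size) was 24.7 ± 1.49 for Nr1d1, 22.8 ± 0.713 for Cry2 and 18.4 ± 0.508 for Dbp (SD, n = 3). Per2 followed at 8.07 ± 0.170 FPKM (SD, n = 3). The other 6 had WT means of 3.27 to 5.05 FPKM, in the order Npas2, Cry1, Arntl, Clock, Per3 and Ciart. In that order, the WT ranges of Nr1d1 and Cry2 overlapped, Dbp lay below Cry2, Per2 lay below Dbp and above Npas2, Npas2, Cry1 and Arntl overlapped, Clock lay below Arntl, and Clock, Per3 and Ciart overlapped. The plot of levels by genotype gives every library.

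**Figure D1:**
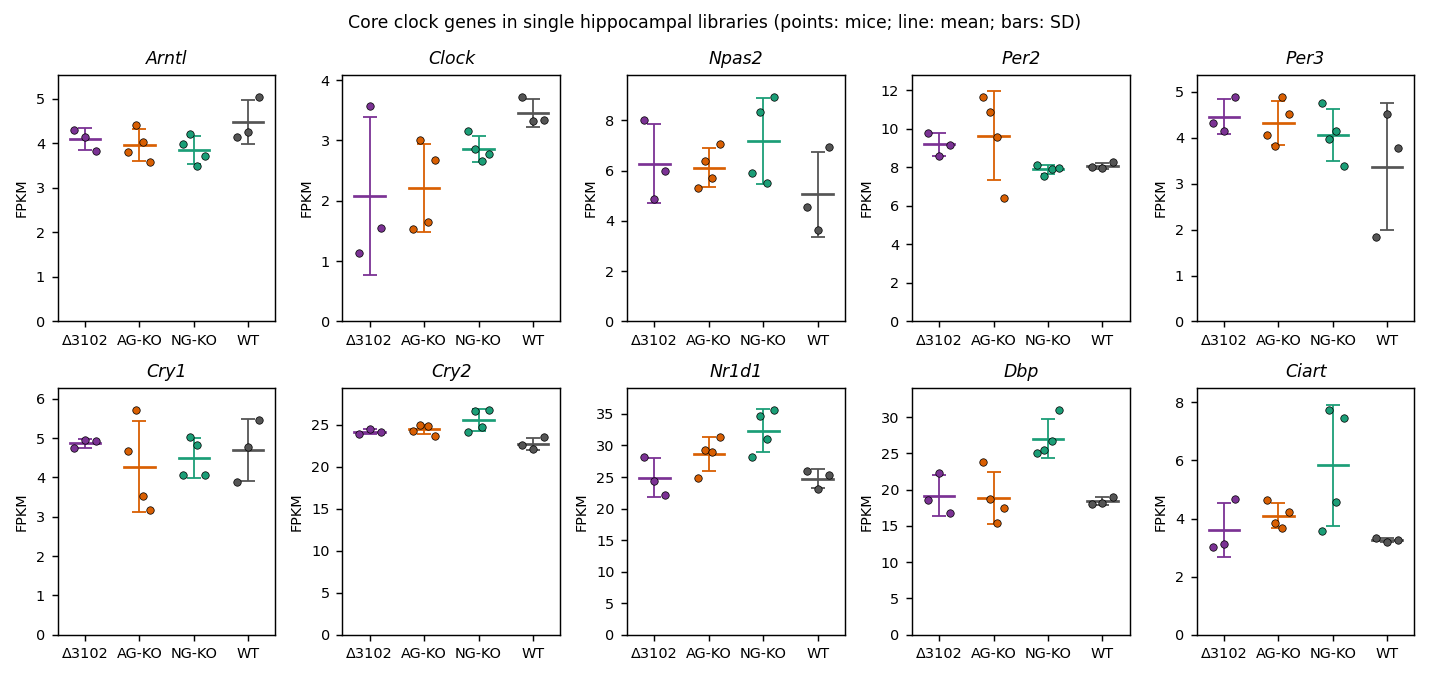
FPKM (vertical axes, from 0) of the 10 core clock genes in single libraries, with Δ3102, AG-KO, NG-KO and WT mice from left to right; points are mice, the line is the mean and the bars are the SD. Dbp is above 25 FPKM in all 4 NG-KO mice, and Clock falls into 2 levels in the Δ3102 and AG-KO mice.

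Libraries held 44527024 to 62669865 counts, and the smallest count of any member in any library was 422, for Ciart. Gper1, which encodes GPR30, had 0.0124 to 0.145 FPKM in Δ3102, 0.540 to 1.38 in AG-KO, 0.975 to 1.41 in NG-KO and 0.797 to 3.05 in WT libraries, so only the Δ3102 libraries lay apart from WT. Transcripts of other tissues varied by library and, in part, with genotype. The summed FPKM of 3 liver markers was 2.31 to 288 in Δ3102, 0.210 to 74.9 in AG-KO, 2.97 to 84.6 in NG-KO and 209.6 to 264 in WT libraries, and all 3 were lower with no overlap in both AG-KO and NG-KO against WT. The 3 choroid plexus markers summed to 15.6 to 1415 FPKM in Δ3102, 15.0 to 236 in AG-KO, 2.24 to 42.4 in NG-KO and 73.3 to 116 FPKM in WT libraries. The 3 muscle markers summed to 229 to 341 FPKM in Δ3102, 3.87 to 131 in AG-KO, 6.91 to 111 in NG-KO and 15.9 to 271 FPKM in WT libraries. The muscle sums of Δ3102 thus lay above those of AG-KO and NG-KO with no overlap, while those of NG-KO and WT overlapped. The part of these tissues in the clock gene results was not tested. In bulk tissue fewer cells of a type and less RNA per cell cannot be told apart.

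No member passed an adjusted p of 0.05 (edgeR quasi-likelihood test, Benjamini-Hochberg over all 18059 genes) in any of the 6 comparisons between genotypes, or in the test of any difference among the 4. The share of all tested genes that passed was 0.0111% for Δ3102 against WT, 0.0221% for AG-KO against WT, 0.072% for NG-KO against WT, 0.111% for AG-KO against NG-KO, 0.0609% for Δ3102 against NG-KO, 0.0277% for AG-KO against Δ3102 and 0.105% among the 4 genotypes. DESeq2 called 1 member, Dbp, for NG-KO against WT, for AG-KO against NG-KO and among the 4 genotypes, and none otherwise. Of all 18059 tested genes, DESeq2 called 165, 430 and 678 in those tests, in the order given. With limma on log2 FPKM no member was called. At an unadjusted p under 0.05 in edgeR the pattern centred on NG-KO mice. Their comparison with WT held 5 of the 10 members, all higher in NG-KO, against 9.16% of all tested genes. Δ3102 against NG-KO held 3, all lower in Δ3102, against 6.46%, and AG-KO against NG-KO held 2, against 14.1%. AG-KO against WT held 1, against 14.4%, while Δ3102 against WT and AG-KO against Δ3102 held none, against 4.45% and 10.6%. Among the 4 genotypes 4 members had an unadjusted p under 0.05, against 12.5% of tested genes. The comparisons with WT share the same 3 WT mice, and those with NG-KO the same 4 NG-KO mice.

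In FPKM, groups did not overlap for 5 members in NG-KO against WT, where 10.9% of tested genes did not overlap, for 3 in AG-KO against WT (13.3%), for 2 in Δ3102 against WT (11.5%), for 1 in AG-KO against NG-KO (6.77%), for 2 in Δ3102 against NG-KO (8.2%) and for none in AG-KO against Δ3102 (9.98%). The median log2 fold change of the 10 members was 0.23 in NG-KO against WT, beside -0.02 over all genes, 0.19 in AG-KO against WT, beside -0.01, and 0.08 in Δ3102 against WT, beside 0.00. It was -0.11 in AG-KO against NG-KO, -0.14 in Δ3102 against NG-KO and 0.02 in AG-KO against Δ3102.

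**Figure D2:**
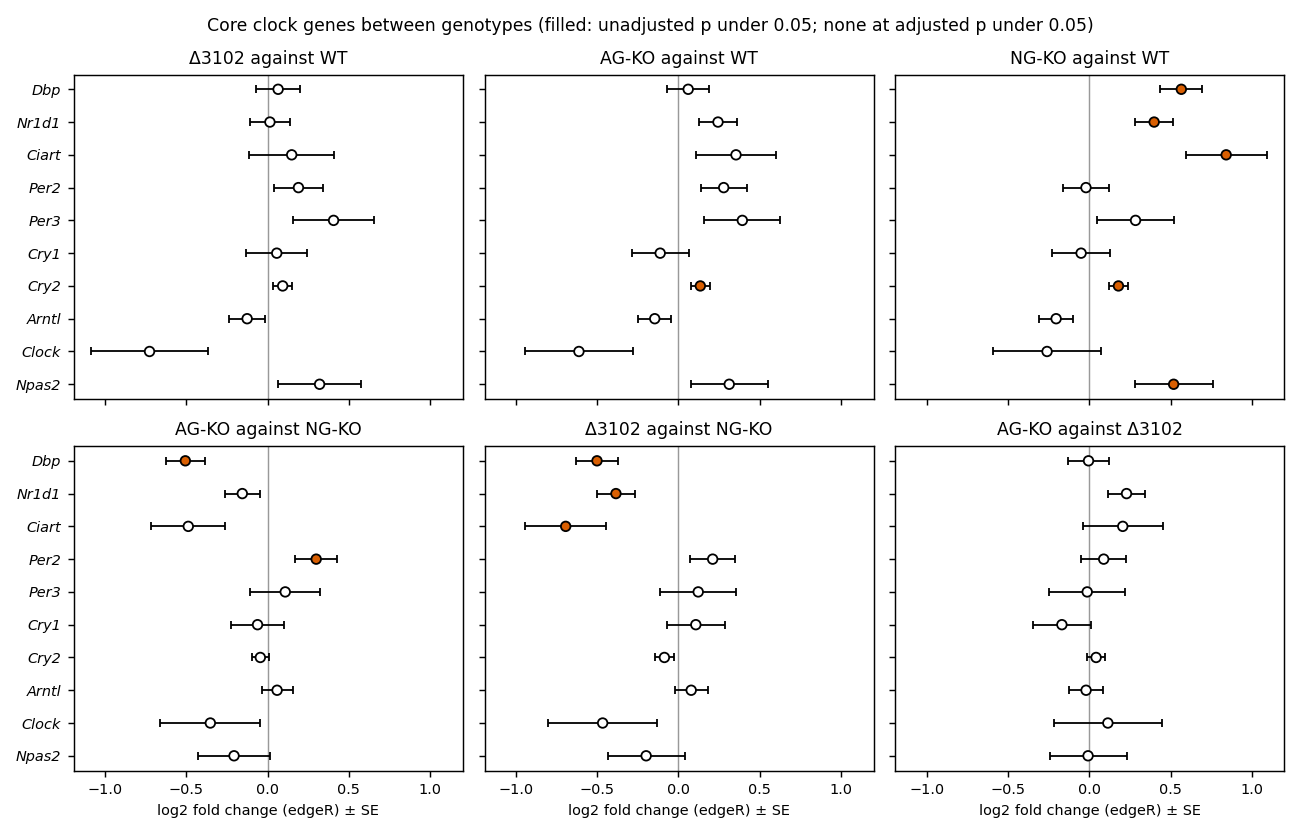
Log2 fold change (horizontal axis, edgeR, ± SE) of each core clock gene in each of the 6 comparisons, named first group against second; filled points have an unadjusted p under 0.05, and none has an adjusted p under 0.05. In NG-KO against WT the filled points are Dbp, Nr1d1, Ciart, Cry2 and Npas2, all to the right of 0.

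Dbp encodes an activator that binds D-boxes and relays the clock to its output genes. It lies at chr7:45705088-45710203 on the plus strand (GRCm38). Its FPKM was 18.6, 22.3 and 16.7 in Δ3102 mice and 23.8, 18.7, 15.5 and 17.4 in AG-KO mice. It was 25.0, 25.5, 26.7 and 30.9 in NG-KO mice, against 18.0, 18.2 and 19.0 in WT mice. All 4 NG-KO libraries lay above all 10 others, with AG-KO replicate 1 and Δ3102 replicate 2 next below them. The log2 fold change was 0.57 ± 0.13 (SE) in NG-KO against WT, with an unadjusted p of 0.000784 and an adjusted p of 0.220 in edgeR. Under DESeq2 the log2 fold change was also 0.57, with an adjusted p of 0.0130. Against NG-KO, Dbp had a log2 fold change of -0.51 ± 0.12 (SE) in AG-KO and -0.50 ± 0.13 (SE) in Δ3102 mice (edgeR adjusted p = 0.118 and 0.455, and DESeq2 adjusted p = 0.0115 and 0.0727). Among the 4 genotypes the adjusted p was 0.197 in edgeR and 0.00273 in DESeq2. So Dbp is called by one count test and not by the other. Without AG-KO replicates 1 and 2, edgeR also called Dbp in AG-KO against NG-KO (log2 fold change -0.66, adjusted p = 0.0108), at a setting where 1484 genes were called.

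Dbp shares 539 exon bases, 18.0% of its exons, with Sphk2 on the opposite strand. The library kit marks strand, but whether the counting used it is not given in the sources used here, so reads in that stretch may belong to either gene. Sphk2 had a mean of 5.32 ± 0.930 FPKM in NG-KO (SD, n = 4) and 5.25 ± 0.148 FPKM in WT mice (SD, n = 3), and its highest value, 8.16 FPKM, was in AG-KO replicate 4. The part of shared reads in the Dbp level was not tested. The ratio of Dbp to Arntl, a pair in opposite phase over the day, was 4.31 to 5.39 in Δ3102, 3.83 to 6.25 in AG-KO and 6.05 to 8.30 in NG-KO mice, against 3.77 to 4.36 in WT mice, so 1 AG-KO library, replicate 1, reached the NG-KO range.

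Nr1d1 encodes the repressor REV-ERBα, a nuclear receptor that binds ROR elements (chr11:98767932-98775333, minus strand). Δ3102 mice had 28.2, 24.4 and 22.1 FPKM and AG-KO mice 24.8, 29.2, 29.0 and 31.4 FPKM. NG-KO mice had 28.1, 34.7, 31.0 and 35.6 FPKM, against 25.9, 23.0 and 25.3 FPKM in WT mice. The NG-KO values lay above WT but overlapped with those of both other knockouts. The log2 fold change was 0.40 ± 0.12 (SE) in NG-KO against WT and -0.38 ± 0.12 (SE) in Δ3102 against NG-KO (edgeR adjusted p = 0.335 and 0.612). Nr1d1 shares 263 bases, 8.55% of its exons, with Thra on the opposite strand, which is far more abundant. Thra had 195 to 215 FPKM in Δ3102, 189 to 203 in AG-KO and 209.8 to 239 in NG-KO mice, against 208 to 219 FPKM in WT mice. Both genes of the pair had their highest value in NG-KO replicate 4, and the part of shared reads in the Nr1d1 level was not tested.

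Ciart, which encodes the repressor CHRONO (chr3:95878503-95882231, minus strand), had the largest fold change of the members. In Δ3102 mice it had 3.04, 3.13 and 4.68 FPKM, and in AG-KO mice 4.64, 3.83, 3.68 and 4.22 FPKM. It had 3.59, 7.72, 4.55 and 7.46 FPKM in NG-KO mice, against 3.34, 3.20 and 3.26 FPKM in WT mice. NG-KO replicates 2 and 4 stood above every other library, while NG-KO replicates 1 and 3 lay within the range of the other knockouts. The log2 fold change in NG-KO against WT was 0.84 ± 0.25 (SE, edgeR adjusted p = 0.338), and 0.34 without those 2 libraries. AG-KO and WT did not overlap either, with a log2 fold change of 0.35 ± 0.25 (SE, edgeR adjusted p = 0.533). In Δ3102 against NG-KO it was -0.69 ± 0.25 (SE, edgeR adjusted p = 0.661), and -0.19 without NG-KO replicates 2 and 4.

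Cry2, a repressor of the activator pair (chr2:92403646-92434043, minus strand), was the steadiest member. Δ3102 mice had 23.9 to 24.6 FPKM and AG-KO mice 23.7 to 24.9 FPKM. It had 24.1, 26.6, 24.8 and 26.7 FPKM in NG-KO mice, against 22.6, 22.1 and 23.5 FPKM in WT mice, so WT was below each knockout with no overlap. The differences were small: the log2 fold change was 0.09 ± 0.06 in Δ3102, 0.13 ± 0.06 in AG-KO and 0.18 ± 0.06 (SE) in NG-KO mice, each against WT (edgeR adjusted p = 0.9997, 0.306 and 0.355). Its SD within genotypes was 0.048 on the log2 CPM scale (CPM, counts scaled to library size), and only 0.183% of tested genes had a smaller one. These 3 comparisons share the WT mice, and their agreement is not independent. Cry2 shares 4.67% of its exon bases with D930015M05Rik on the opposite strand, which had at most 1.28 FPKM.

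Npas2, the partner that can replace CLOCK (chr1:39193731-39363236, plus strand), had 5.92, 8.34, 5.49 and 8.93 FPKM in NG-KO mice, against 4.57, 3.66 and 6.94 FPKM in WT mice. The 2 highest of all libraries were again NG-KO replicates 4 and 2, and Δ3102 replicate 1 came next at 8.00 FPKM. The groups overlapped, with a log2 fold change of 0.52 ± 0.24 (SE) in NG-KO against WT (edgeR adjusted p = 0.543), and 0.20 without NG-KO replicates 2 and 4.

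NG-KO replicates 2 and 4 were also apart in some cell type markers. Of the hippocampal neuron markers, Prox1 of the dentate gyrus had 4.80 and 4.13 FPKM there, against 7.63 and 9.11 FPKM in the other NG-KO libraries and 8.43 to 11.5 FPKM in WT libraries. Neurod6 of the pyramidal layer had 54.9 and 57.6 FPKM there, against 68.5 FPKM or more in WT libraries. Next above them in Prox1 was AG-KO replicate 4, at 5.32 FPKM. The sum over the 5 neuron markers, of which Neurod6 was the largest, was 138 and 137 FPKM in the 2 libraries and 163 to 210 FPKM in the other 12. The other neuron markers did not set the 2 libraries apart. Wfs1 had 29.2 and 27.9 FPKM there and 27.7 FPKM in NG-KO replicate 1. Rbfox3 had 32.1 and 30.8 FPKM there and 30.2 FPKM in AG-KO replicate 2. Spink8 had 16.9 and 16.1 FPKM there and 13.9 FPKM in AG-KO replicate 3. The oligodendrocyte markers Mbp and Mog did not overlap between NG-KO and WT, with sums of 65.9 to 71.3 FPKM in Δ3102, 66.6 to 127 FPKM in AG-KO, 47.0 to 64.6 FPKM in NG-KO and 70.5 to 139.7 FPKM in WT libraries. The 4 astrocyte markers summed to 363 to 409 FPKM in NG-KO and 349 to 428 FPKM in WT. In edgeR 2 of the 4 were lower in NG-KO against WT at an unadjusted p under 0.05 (lowest edgeR adjusted p = 0.412), where 9.16% of all tested genes passed. Against WT, 2 were also lower in Δ3102 (4.45% of all tested genes) and 1 was higher in AG-KO (14.4%). Gja1 lay below WT with no overlap in each knockout, so it did not set NG-KO apart. It had 15.1 to 16.6 FPKM in Δ3102, 16.4 to 17.1 in AG-KO, 15.7 to 16.8 in NG-KO and 17.9 to 18.5 FPKM in WT libraries. Without replicates 2 and 4 the log2 fold change in NG-KO against WT was 0.51 for Dbp, 0.28 for Nr1d1 and 0.12 for Cry2, with edgeR adjusted p of 0.684, 0.874 and 0.893. The part of the marker differences in these results was not tested.

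**Figure D3:**
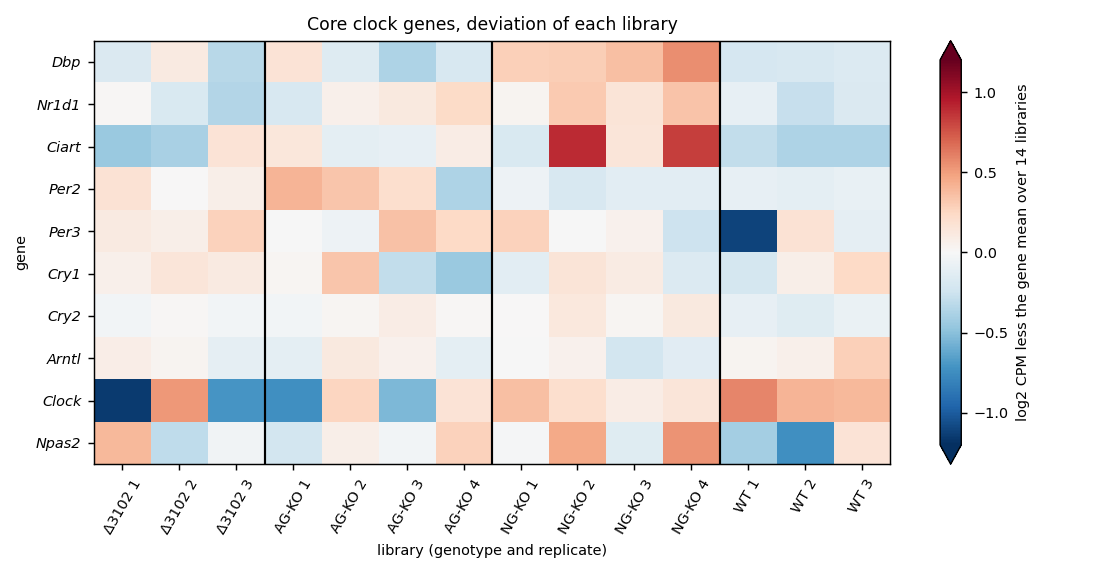
Log2 CPM of each core clock gene (rows) in each library (columns; Δ3102, AG-KO, NG-KO and WT mice from left to right, black lines between genotypes) less the mean of that gene over the 14 libraries. NG-KO 2 and NG-KO 4 have the highest Ciart and Npas2, WT 1 stands out for Per3, and Δ3102 1, Δ3102 3, AG-KO 1 and AG-KO 3 for Clock.

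Per2, a repressor that is both a clock gene and an immediate early gene (chr1:91415982-91459324, minus strand), spread over the AG-KO mice. It had 9.79, 8.60 and 9.18 FPKM in Δ3102 mice and 11.7, 10.9, 9.56 and 6.42 FPKM in AG-KO mice. NG-KO mice had 8.14, 7.56, 7.91 and 7.95 FPKM, and WT mice 8.00, 7.95 and 8.27 FPKM. AG-KO held both the highest and the lowest values of all libraries, while WT and NG-KO were close together. The log2 fold change in AG-KO against NG-KO was 0.30 ± 0.13 (SE, edgeR adjusted p = 0.318). Leaving out AG-KO replicate 4 turned this into a call (log2 fold change 0.45, edgeR adjusted p = 0.0469), and leaving out AG-KO replicates 1 and 2 took it to 0.07. Δ3102 did not overlap with WT or NG-KO, with log2 fold changes of 0.19 ± 0.15 against WT and 0.21 ± 0.14 (SE) against NG-KO (edgeR adjusted p = 0.9997 and 0.924).

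Per2 was correlated with Egr1 and Arc among 10 immediate early genes, a comparison chosen after the values were seen. Arc, which encodes a synaptic protein made upon activity, had 71.6, 74.8, 53.3 and 17.3 FPKM in AG-KO mice, against 16.3 to 34.5 FPKM in the other 10 libraries. The activity-induced factor Egr1 had 46.4, 44.1, 26.1 and 18.3 FPKM in AG-KO mice, against 16.7 to 30.0 FPKM elsewhere. AG-KO replicates 1 and 2 were thus highest for Per2, Arc and Egr1, and AG-KO replicate 4 was low for each. Over the 14 libraries the log2 CPM of Per2 correlated with that of Egr1 with Pearson's r = 0.834 (permutation p = 0.00021, adjusted p = 0.0210 over 100 pairs of a member and an immediate early gene) and Spearman's rho = 0.749 (permutation p = 0.00299, adjusted p = 0.299). With Arc the values were r = 0.811 (permutation p = 0.00051, adjusted p = 0.0255) and rho = 0.631 (permutation p = 0.0173, adjusted p = 0.434). Without the 2 libraries farthest from the median of Per2, r was 0.596 with Egr1 and 0.570 with Arc. Centred on genotype means, r was 0.862 and 0.888 (permutation adjusted p = 0.00700 and 0.00833). Those permutations took all 14 mice as exchangeable, without regard to genotype. The spread of Per2 within genotypes lay mostly in AG-KO mice. Its SD was 2.31 FPKM there, against 0.596 in Δ3102, 0.243 in NG-KO and 0.170 FPKM in WT mice. These 2 were the only pairs of the 100 at an adjusted p under 0.05 by r, none was by rho, and 6 were after centring, all with Per2 (Fos, Junb, Egr1, Egr2, Arc and Nr4a1). Of the other members of the list, Fosb, Npas4, Btg2 and Ier2 had r of 0.463, 0.238, 0.105 and 0.056 with Per2 (permutation adjusted p of 0.761 to 0.982). Egr1 ranked 3 and Arc 5 by r with Per2 among 18058 other tested genes. Above both, at rank 2, was Errfi1, a feedback inhibitor of growth factor receptors from the list of genes induced by glucocorticoids. Errfi1 had r = 0.867 with Per2 (permutation adjusted p = 0.00400 over 80 pairs of a member and a gene of that list), rho = 0.776 (permutation adjusted p = 0.0736), r = 0.685 without the 2 libraries farthest from the median of Per2 and r = 0.852 after centring (permutation adjusted p = 0.0156). It was the only pair of the 80 at an adjusted p under 0.05 by r, none was by rho, and without AG-KO replicate 1 none passed by r. Errfi1 had 22.0, 20.1, 12.4 and 9.70 FPKM in AG-KO mice, against at most 14.3 FPKM elsewhere. The other 7 genes of that list had r of 0.154 to 0.568 with Per2, the highest being that of Sgk1 (permutation adjusted p = 0.267). The relation with the immediate early genes leans on the AG-KO mice. Before centring, leaving out AG-KO replicate 1, 2 or 3 left 0 of the 100 pairs, and leaving out other libraries 1 to 5. After centring, no library was left out.

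**Figure D4:**
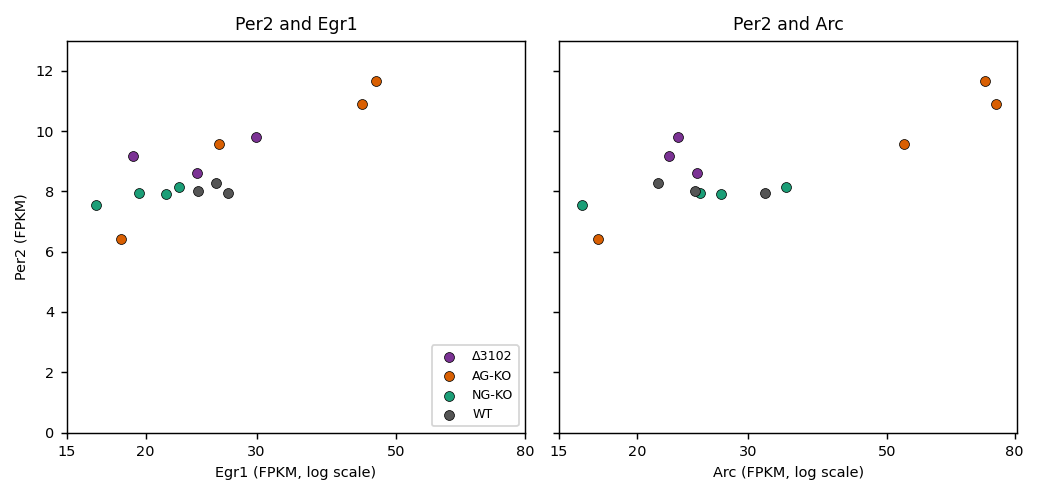
Per2 (vertical axis, FPKM, from 0) against Egr1 and Arc (horizontal axes, FPKM on a log scale) in 14 libraries, 1 point per mouse, with colours for Δ3102, AG-KO, NG-KO and WT. AG-KO replicates 1 and 2 are at the upper right of both panels (11.7 and 10.9 FPKM of Per2), and AG-KO replicate 4 is the lowest in Per2 (6.42 FPKM).

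The other 2 period and cryptochrome members held no difference between genotypes at an unadjusted p under 0.05. Per3, a period gene with a smaller part in the loop (chr4:151003652-151044665, minus strand), had 4.33, 4.15 and 4.88 FPKM in Δ3102, 4.06, 3.83, 4.89 and 4.51 in AG-KO, 4.76, 3.96, 4.14 and 3.39 in NG-KO and 1.83, 4.52 and 3.77 FPKM in WT mice. WT replicate 1 was lower than every other library, and its count was 1148 against 1767 to 3081 elsewhere. Cry1, a strong repressor that keeps the loop delayed (chr10:85131700-85185064, minus strand), ran from 3.17 FPKM in AG-KO replicate 4 to 5.71 FPKM in AG-KO replicate 2. All other genotypes lay within that range.

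Apart from Npas2, the activators held no difference between genotypes at an unadjusted p under 0.05 in edgeR. Arntl, whose loss alone abolishes daily rhythms of behaviour in mice (chr7:113207465-113314126, plus strand), had 4.31, 4.14 and 3.83 FPKM in Δ3102, 3.81, 4.41, 4.04 and 3.59 in AG-KO, 3.98, 4.22, 3.48 and 3.73 in NG-KO and 4.14, 4.26 and 5.04 FPKM in WT mice. Groups overlapped in all 6 comparisons, and its SD within genotypes, 0.120 on the log2 CPM scale, was low, since 15.2% of the 1000 genes nearest in level had a smaller one. Clock (chr5:76209868-76304792, minus strand) was the most variable member. It had 1.13, 3.56 and 1.54 FPKM in Δ3102 mice, 1.53, 3.00, 1.65 and 2.67 FPKM in AG-KO mice, 3.15, 2.86, 2.65 and 2.78 FPKM in NG-KO mice and 3.72, 3.32 and 3.33 FPKM in WT mice. Δ3102 replicates 1 and 3 and AG-KO replicates 1 and 3 had 1.13 to 1.65 FPKM and the other 10 had 2.65 to 3.72 FPKM. The counts split alike, with 1005 to 1173 in those libraries and 2070 to 3327 in the rest. AG-KO and NG-KO each lay below WT with no overlap, with log2 fold changes of -0.61 ± 0.33 and -0.26 ± 0.33 (SE, edgeR adjusted p = 0.412 and 0.864). The SD of Clock within genotypes was 0.480 on the log2 CPM scale, above those of 92.2% of the 1000 genes nearest in level. The member most unlike Clock across libraries was Per2, with r = -0.570 over 14 libraries (permutation p = 0.0325, adjusted p = 0.204 over 45 pairs) and rho = -0.327 (permutation p = 0.253, adjusted p = 0.599).

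Few members were correlated with each other across mice. Of the 45 pairs of members, 1 had an adjusted p under 0.05 by Pearson's r of log2 CPM over 14 libraries (two-sided permutation test), 8 had an unadjusted p under 0.05 and none passed by Spearman's rho or after centring on genotype means. That pair was Nr1d1 and Cry2, with r = 0.798 (permutation p = 0.0007, adjusted p = 0.0315), rho = 0.789 (permutation p = 0.00135, adjusted p = 0.0607), r = 0.706 without the 2 libraries farthest from the median of Cry2 and r = 0.630 after centring (permutation p = 0.0171, adjusted p = 0.386). Cry2 and Ciart had r = 0.730 (permutation adjusted p = 0.0634), and Npas2 and Nr1d1 had r = 0.699 (permutation adjusted p = 0.0787). Arntl and Npas2 transcripts run in opposite phase to those of Dbp and Nr1d1 over the day, and these pairs had r of either sign. Arntl had r = -0.442 with Dbp (permutation p = 0.114, adjusted p = 0.427) and -0.255 with Nr1d1 (permutation adjusted p = 0.781). Npas2 had r = 0.302 with Dbp (permutation adjusted p = 0.715) and the 0.699 above with Nr1d1. After centring, r was -0.184, 0.252, -0.132 and 0.671 in that order (permutation adjusted p = 0.386 for the last). Of the 21 pairs of an activator (Arntl, Clock, Npas2) with another member, r was positive for 10 and negative for 11, with a median of -0.03. After centring, 12 were positive and 9 negative, with a median of 0.10. Of the 21 pairs among the 7 others, r was positive for 12 and negative for 9, with a median of 0.04. After centring, 8 were positive and 13 negative, with a median of -0.10, so both medians changed sign. This grouping was chosen after the values were seen. Leaving out 1 library gave 0 to 5 pairs, with 0 without AG-KO replicate 1 or 2, any of the 4 NG-KO replicates or WT replicate 2, and 5 without Δ3102 replicate 1, 4 without Δ3102 replicate 3, 3 without WT replicate 3 and 2 without Δ3102 replicate 2 or AG-KO replicate 3.

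**Figure D5:**
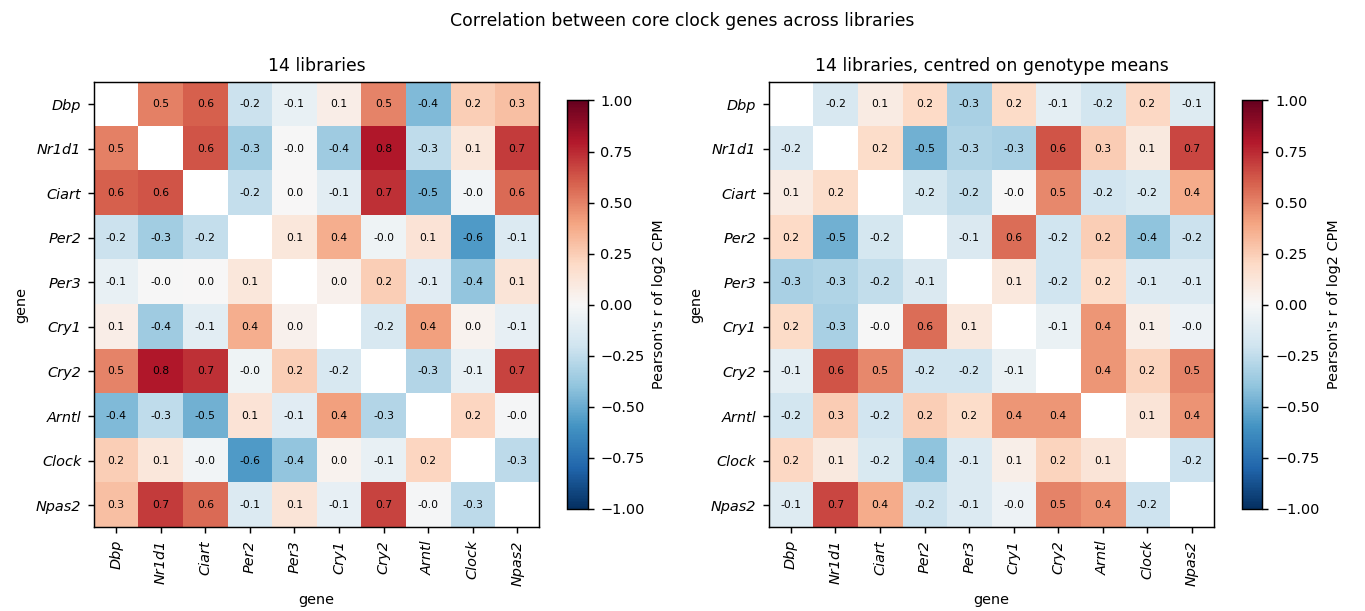
Pearson's r of log2 CPM between core clock genes over 14 libraries, as they are (left) and centred on genotype means (right); rows and columns are genes and each cell prints r to 1 decimal. Nr1d1, Cry2, Ciart and Npas2 are all positively correlated with each other on the left (0.565 to 0.798).

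The other genes of the clock gave no further call. A list of 18 (Per1, Nr1d2, Rora, Rorb, Arntl2, Tef, Hlf, Nfil3, Bhlhe40, Bhlhe41, Usp2, Wee1, Csnk1d, Csnk1e, Fbxl21, Btrc, Fbxw11 and Timeless) was tested, and none had an adjusted p under 0.05 in any comparison in edgeR, DESeq2 or limma. At an unadjusted p under 0.05 in edgeR, 1 of the 18 was lower in NG-KO against WT (9.16% of all tested genes passed) and 1 lower in AG-KO against WT (14.4%). Against NG-KO, 2 were higher in AG-KO (14.1%) and 1 higher in Δ3102 (6.46%). None passed in Δ3102 against WT (4.45%) or AG-KO against Δ3102 (10.6%). The median log2 fold change of the list in NG-KO against WT was -0.04, beside 0.23 for the 10 members. Its widest ranges were those of Tef (13.4 to 50.5 FPKM), a relative of Dbp, of Rorb (0.443 to 1.44 FPKM), a receptor that activates ROR elements, and of Fbxl21 (0.362 to 1.22 FPKM), part of a ubiquitin ligase that acts on CRY proteins. Tef had 47.1, 24.2, 50.5 and 49.9 FPKM in NG-KO mice, against 25.9, 44.3 and 13.4 FPKM in WT mice, so the groups overlapped and the NG-KO pattern of Dbp was not repeated in each mouse. Nr1d2, the paralog of Nr1d1 and the narrowest of the list, had 11.9 to 12.6 FPKM in NG-KO and 11.3 to 13.3 FPKM in WT mice. Per1 had 19.5, 16.7, 11.9 and 9.16 FPKM in AG-KO mice, the order of Per2, and its r with Per2 was 0.729 (permutation p = 0.00312, adjusted p = 0.00858 over 11 pairs, n = 14), with rho = 0.486 (permutation p = 0.0815, adjusted p = 0.171) and r = 0.369 without the 2 libraries farthest from the median of Per1. Nr1d2 and Per1 were chosen after their values were seen.

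Neither of the further lists gave a call in edgeR or limma. Of 10 immediate early genes, DESeq2 called Npas4 in AG-KO against WT and against Δ3102 and Arc in AG-KO against NG-KO, and it called Arc, Fos and Npas4 among the 4 genotypes. Over all tested genes, DESeq2 called 408, 117, 430 and 678 in these tests, in the order given. In edgeR 5 of the 10 were higher at an unadjusted p under 0.05 in AG-KO against WT, 5 in AG-KO against NG-KO and 6 in AG-KO against Δ3102, with median log2 fold changes of 0.87, 0.65 and 0.96. The shares of all tested genes at that threshold were 14.4%, 14.1% and 10.6%. At the same threshold 1 was higher in NG-KO against WT (9.16%), with a median of 0.20 for the list. In Δ3102 against NG-KO 1 was lower (6.46%), and none passed in Δ3102 against WT (4.45%). The widest were Fosb (0.203 to 5.30 FPKM) and Egr2 (0.192 to 2.60 FPKM). Of 8 genes induced by glucocorticoids, among them Mt2 (77.5 to 248 FPKM) and Sgk1 (10.0 to 29.2 FPKM), none had an unadjusted p under 0.05 in NG-KO, AG-KO or Δ3102 against WT, and the median in NG-KO against WT was -0.07. The shares of all tested genes in those 3 comparisons with WT were 9.16%, 14.4% and 4.45%. In the other comparisons 1 of the 8 was higher in AG-KO against NG-KO (14.1% of all tested genes passed), 2 higher in Δ3102 against NG-KO (6.46%) and 1 lower in AG-KO against Δ3102 (10.6%), with no call in DESeq2.

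Outside these lists, the genes whose log2 CPM was most like that of Dbp over the 14 libraries were Mir22hg (r = 0.899), Alg2 (r = 0.895) and Frg1 (r = 0.870). Those most like Arntl were S100a6 (r = 0.867), Susd5 (r = 0.820) and Pcdhb5 (r = 0.804). These are the highest values among the tested genes outside the lists, with symbols of predicted gene models also left out. They come from libraries that share genotype and are given as a description.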

How the data were processed

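Poly(A) RNA of the hippocampus was sequenced, 1 library per mouse. According to the study's methods and the submitters' notes, the authors trimmed reads with cutadapt 1.9, mapped them to GRCm38 with HISAT2 2.0.4 and used StringTie 1.3.4d, and UMI-tools, DESeq2 and edgeR are listed without a role. The deposited FPKM values were calculated by the authors with StringTie. The deposited count values are whole numbers per gene that were not normalized, and the counting program is not given in the sources used here. Of the 91 library pairs, 0 held identical values. Gene coordinates are those of the deposited table on GRCm38, and shared exon bases were taken from GENCODE vM21. The coordinates were the same in both for every member but Ciart, and for 94.7% of all genes.

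Groups follow the labels. That the mice are separate animals is taken from the labels, and the p-values measure the spread between them. Counts of all 14 libraries were fitted in edgeR 4.0.16 (TMM, quasi-likelihood test, R 4.3.3) with 1 mean per genotype. Genes that reached 0.5 FPKM in 3 or more libraries (99.6% to 99.7% of counts) were tested, two-sided, with Benjamini-Hochberg adjustment over 18059 genes and a threshold of 0.05. The fit was also run on counts simulated from its own estimates of level and spread, which cannot show how well its model holds for these libraries. Standard errors were derived from the fold change and its F statistic. Correlations used log2 CPM (prior count 2) and 100000 permutations. Values were permuted over all libraries used, also after centring, without regard to genotype.

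Alternatives were no filter, a filter at 1 FPKM, median-ratio scaling, DESeq2 1.42.0, limma 3.58.1 on log2(FPKM + 0.1) and log2(FPKM + 1), fits of only the groups compared, the replicate number as a block and leaving out each library. Leaving out NG-KO replicates 2 and 4, or AG-KO replicates 1 and 2, and the pairs with immediate early and glucocorticoid-induced genes were added after the data were seen. The members and lists were chosen with earlier results of these data known, and 3 genes of the lists are not reported here. The rule for named genes gave all 10 members, the 3 widest of the other clock genes, the 2 widest of each further list and the 3 genes most like Dbp and Arntl. Values or tests of other genes of the lists (Nr1d2, Per1, Errfi1, Ddit4, Pdk4 and immediate early genes other than Fosb and Egr2) were chosen after they were seen.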

Additional observations from a re-analysis of the deposited data

How the results depend on the processing

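No log2 fold change printed in the text for a member changed direction under any of 24 alternatives. Of all 60 plotted log2 fold changes of members, 22 took the other sign in some alternative, 44 of 1440 values, and the largest of these was -0.49 (Ciart in AG-KO against NG-KO). The count of members called went to 1 under DESeq2 for NG-KO against WT, AG-KO against NG-KO and among the 4 genotypes (Dbp), and to 1 without AG-KO replicates 1 and 2 for AG-KO against NG-KO and among the 4 genotypes (Dbp, adjusted p = 0.0180 among the 4 in edgeR). Leaving out single libraries gave 0 to 1 for AG-KO against NG-KO (Per2 without AG-KO replicate 4) and 0 in the other comparisons. Correlated pairs of members numbered 1 as reported, 0 on log2(FPKM + 0.1), 0 when centred, and 0 to 5 when leaving out single libraries. Pairs with glucocorticoid-induced genes numbered 1 as reported, 5 when centred and 0 to 2 when leaving out single libraries. The 5 were not all with Per2. When centred, Per2 had r = 0.852 with Errfi1 and 0.763 with Ddit4. Nr1d1 had r = -0.785 with Sgk1 and -0.789 with Ddit4, and Per3 had r = -0.860 with Pdk4. Before centring, Per2 had r = 0.449 with Ddit4 and Nr1d1 had r = -0.565 with Sgk1 and -0.668 with Ddit4. Per3 then had r = -0.228 with Pdk4 (permutation adjusted p of 0.183 to 0.793 for these pairs). WT replicate 1, the lowest in Per3, had 3.87 FPKM of Pdk4, against 2.39 and 2.05 FPKM in the other WT libraries. Over all genes, DESeq2 called 29, 408, 165, 430, 80, 117 and 678 genes, against 2, 4, 13, 20, 11, 5 and 19 in edgeR (Δ3102, AG-KO and NG-KO against WT, AG-KO and Δ3102 against NG-KO, AG-KO against Δ3102, and any). Without AG-KO replicates 1 and 2, edgeR called 1504 genes for AG-KO against WT, 1484 against NG-KO and 1001 against Δ3102. The causes were not tested. The median log2 fold change of all genes stayed within 0.045 of 0 in every setting.

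Replicate numbers showed no pairing of the mice over all tested genes: 19 same-numbered pairs had correlations of deviations of -0.284 to 0.308, 6 of them over 0.1. Differently numbered pairs of different genotypes had -0.443 to 0.434. Such correlations cannot show whether same-numbered mice shared an hour of collection. With the replicate block 0 members were called in every comparison, and the log2 fold change of Dbp in NG-KO against WT was 0.54 (edgeR adjusted p = 0.576).

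Differences of the size of Nr1d1 (1.32-fold in NG-KO against WT) did not pass the adjustment in edgeR, which does not show that they are absent.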
